A study of Oryctolagus cuniculus with 17 samples.

Results

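The aminoacyl-tRNA synthetases of the preterm rabbit lung, with the proteins that hold some of them together and the enzymes of the selenocysteine route, were followed in pups kept in hyperoxia and in normoxia. Members were taken from the count table by their human gene name, using the pattern shared by the synthetase symbols together with EPRS1, FARSB, AIMP1, AIMP2, PSTK and SEPSECS. This gave 36 of the 13827 genes listed: 18 cytosolic synthetases, 14 mitochondrial synthetases (symbols that end in 2), 2 scaffold proteins and 2 enzymes that make selenocysteinyl-tRNA. All 36 passed the filter on low counts and were among the 13142 genes tested. CARS1, FARSA, EARS2, SARS2 and VARS2 are not analysed here.

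New Zealand White pups were delivered preterm by caesarean section on day 28 of gestation, and all groups shared this preterm birth and feeding with a milk replacer. They were kept at 95% oxygen (hyperoxia, HT) or 21% oxygen (normoxia, NT) until postnatal day 3, 5 or 7, which gives the groups HT3, HT5, HT7, NT3, NT5 and NT7. RNA came from homogenised lung, and poly(A) RNA was sequenced. The labels and the Methods of the paper give the right lung, whereas its Results name the left. Each group had 3 samples, except HT5 with 2. The labels do not give the litter of a sample, so p-values measure the spread between these samples.

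Each aminoacyl-tRNA synthetase joins an amino acid to its own tRNA, and the charged tRNA brings that amino acid to the ribosome. Mammalian cells hold separate sets of these enzymes for the cytosol and for the mitochondrion, all encoded in the nucleus, whereas the genes for the glycine and lysine enzymes (GARS1, KARS1) supply both compartments. Several cytosolic synthetases sit in the multisynthetase complex, which AIMP1 and AIMP2 hold together. Many cytosolic synthetase genes are known targets of ATF4, the transcription factor of the amino acid response, and WARS1 is known as a gene induced by interferon gamma.

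The libraries held between 13123731 and 18111086 counts with each locus counted once, and between 14508362 and 19961087 with the counts of a shared locus given to each of its genes. Levels are given as CPM, counts scaled to the latter totals with TMM normalization, and differences as log2 fold change (log2FC) of hyperoxia over normoxia from edgeR's quasi-likelihood test with Benjamini-Hochberg adjustment over all genes tested. A gene is said to have passed, risen or fallen when its adjusted p-value was under 0.01, and to be a DEG when its log2FC was also above 2 or below -2. Reads were counted per locus, and 6 members share a locus and its counts with another gene: LARS1 with PLAC8L1, LARS2 with KIF9, MARS1 with MBD6, VARS1 with VWA7, WARS1 with SLC25A29 and TARS2 with ECM1. Values under these 6 names are those of both genes together. CPM are not corrected for transcript length, so levels are not compared between genes.

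On day 7, 13 of 18 cytosolic synthetases, 5 of 14 mitochondrial synthetases and the scaffold gene AIMP1 were higher in hyperoxia, and none passed with a fall, although WARS1 did with a replicate block, a fit that pairs same-numbered samples of a day. Among all genes tested, 16.7% passed with a rise and 16.9% with a fall on that day, so the share of cytosolic members that rose (13 of 18) stood above the share of all genes. The median log2FC was 0.80 for the cytosolic and 0.45 for the mitochondrial synthetases, beside -0.01 for all genes tested, and the difference between the classes was not tested. In tissue homogenate, a change in the share of cells that express a gene and a change in RNA per cell cannot be told apart.

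**Figure D1:**
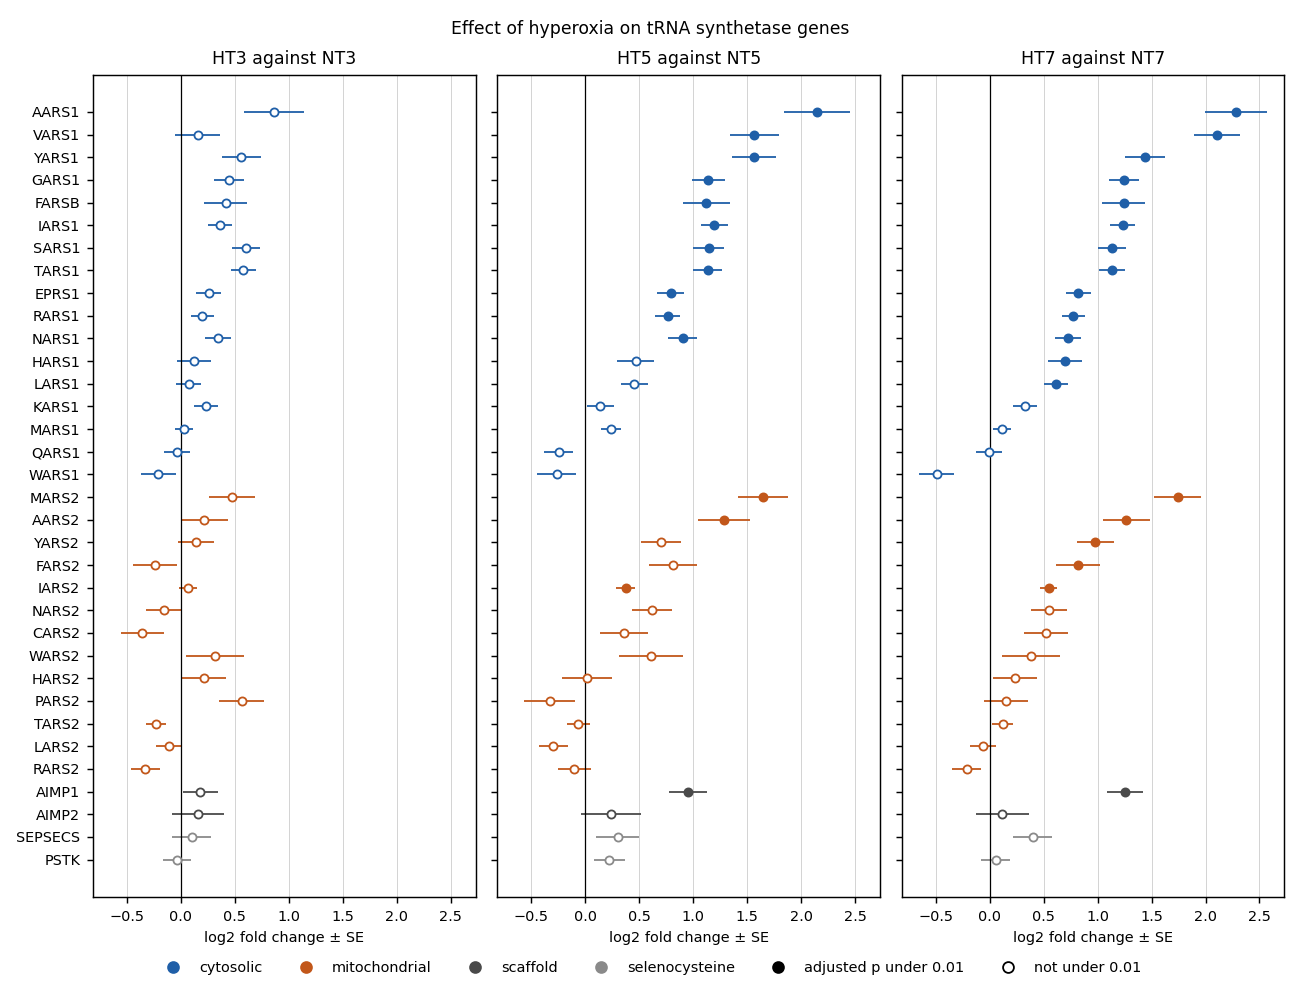
Log2 fold change of hyperoxia over normoxia (x axis, log2 scale, ± standard error) for the genes described (y axis) on days 3, 5 and 7, coloured by class, with filled points where edgeR's adjusted p-value was under 0.01. On day 3 no point is filled, on day 5 there are 15 filled points and on day 7 there are 19, all to the right of 0.

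AARS1, the cytosolic alanine enzyme (chromosome 5, 29194437 to 29213796, OryCun2.0), was a DEG on days 5 and 7. Its level was 712, 475 and 774 CPM in the HT7 samples and 122, 132 and 149 CPM in the NT7 samples. On day 5 it was 316 and 702 CPM in HT5 against 137, 123 and 83.9 CPM in NT5, and on day 3 it was 200.4, 159 and 224 CPM in HT3 against 95.6, 88.3 and 137 CPM in NT3. The groups did not overlap on any day, and the 2 HT5 samples lay far apart. The log2FC was 0.86 on day 3 (standard error 0.28, adjusted p = 0.153, edgeR), 2.15 on day 5 (standard error 0.31, adjusted p = 0.000301, edgeR) and 2.28 on day 7 (standard error 0.29, adjusted p = 2.7e-05, edgeR), the last of which is a 4.86-fold rise. Without the second HT5 sample the log2FC on day 5 was 1.45 and AARS1 was no longer called, and with the samples of day 5 alone AARS1 did not pass either (adjusted p = 0.0198, edgeR). Of all genes tested, 0.822% were DEGs with a rise on day 5 and 1.75% on day 7.

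VARS1, the cytosolic valine enzyme (chromosome 12, 20591458 to 20603927), was the other DEG of day 7, with counts that include those of VWA7. It stood at 285, 177 and 248 CPM in HT7 and at 62.8, 46.5 and 55.8 CPM in NT7. On day 5 the HT5 samples had 112 and 201 CPM and the NT5 samples 59.4, 50.1 and 49.1 CPM. On day 3 the groups overlapped, with 57.6, 53.6 and 72.7 CPM in HT3 and 52.7, 55.3 and 57.3 CPM in NT3. The log2FC was 0.15 (adjusted p = 0.78), 1.57 (adjusted p = 0.000319) and 2.10 (standard error 0.21, adjusted p = 5.4e-06) on days 3, 5 and 7 by edgeR's test.

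**Figure D2:**
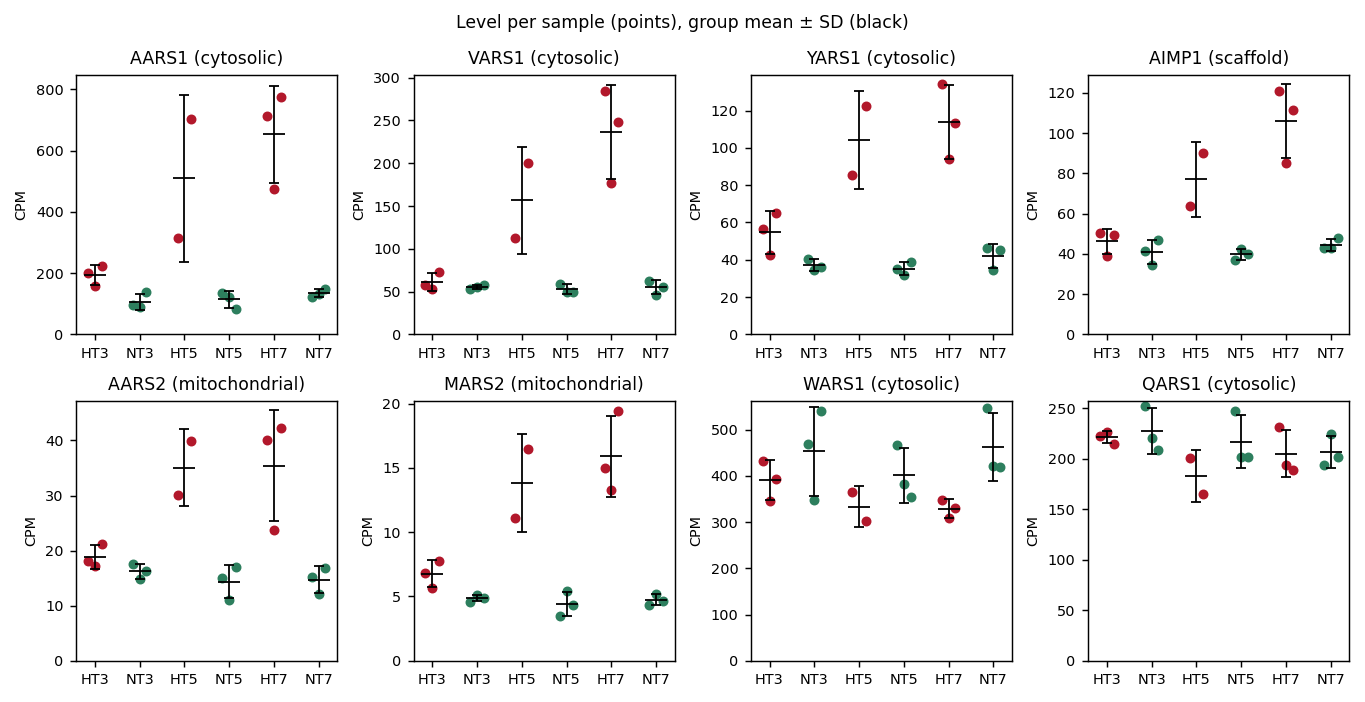
Level in CPM (y axis, starting at 0) of 8 genes in each sample of the 6 groups (x axis), with hyperoxia in red, normoxia in green and the group mean ± SD in black. AARS1 in HT7 lies between 475 and 774 CPM, above NT7 at 122 to 149 CPM, whereas WARS1 in HT7 lies between 308 and 348 CPM, below NT7 at 419 to 547 CPM, and QARS1 overlaps on day 7.

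The next cytosolic members by their change on day 7 load tyrosine, glycine, phenylalanine, isoleucine, serine and threonine. YARS1, the tyrosine enzyme, stood at 134, 94.2 and 113 CPM in HT7 and at 46.2, 34.5 and 45.4 CPM in NT7, and its log2FC was 1.44 ± 0.18 (SE, adjusted p = 3.11e-05, edgeR). On day 5 YARS1 had 85.4 and 123 CPM in HT5 against 34.8, 31.9 and 38.9 CPM in NT5, and on day 3 it had 56.4, 42.4 and 65.2 CPM in HT3 against 40.5, 34.4 and 36.4 CPM in NT3. All hyperoxia values of YARS1 lay above normoxia on each day, with a log2FC of 0.56 on day 3 (standard error 0.18, adjusted p = 0.158) and 1.56 on day 5 (standard error 0.20, adjusted p = 0.00015) by edgeR's test.

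GARS1, which serves both compartments (chromosome 10, 14935276 to 14993441), stood at 156, 110.2 and 131 CPM in HT7 and at 54.8, 52.5 and 60.4 CPM in NT7, and its log2FC was 1.24 ± 0.14 (SE, adjusted p = 1.19e-05, edgeR). Its day 5 levels were 120.5 and 114 CPM in HT5 against 57.9, 51.0 and 51.0 CPM in NT5, and its day 3 levels were 70.4, 59.0 and 81.6 CPM in HT3 against 45.4, 51.8 and 57.6 CPM in NT3. GARS1 did not overlap on any day either, and its log2FC was 0.45 on day 3 (standard error 0.14, adjusted p = 0.146) and 1.14 on day 5 (standard error 0.15, adjusted p = 0.000221) by edgeR's test. FARSB, the beta subunit of the phenylalanine enzyme, stood at 96.8, 56.4 and 80.4 CPM in HT7 and at 36.8, 29.3 and 32.7 CPM in NT7, and its log2FC was 1.24 ± 0.20 (SE, adjusted p = 0.000182, edgeR). On day 5 FARSB had 56.997 and 76.8 CPM in HT5 against 29.9, 27.1 and 35.2 CPM in NT5, and on day 3 it had 44.7, 31.5 and 44.4 CPM in HT3 against 28.3, 27.2 and 34.9 CPM in NT3. FARSB overlapped on day 3 and not on days 5 and 7, with a log2FC of 0.42 on day 3 (standard error 0.20, adjusted p = 0.335) and 1.12 on day 5 (standard error 0.22, adjusted p = 0.00192) by edgeR's test. In YARS1, GARS1 and FARSB the second HT7 sample was the lowest of its group.

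IARS1, the isoleucine enzyme (chromosome 1, 70067175 to 70146984), had the smallest adjusted p-value of the members on day 7. It stood at 209, 184 and 220.3 CPM in HT7 and at 89.5, 79.3 and 92.8 CPM in NT7, and its log2FC was 1.23 ± 0.11 (SE, adjusted p = 2.94e-06, edgeR). On day 5 IARS1 had 177 and 233 CPM in HT5 against 95.4, 88.7 and 84.6 CPM in NT5, and on day 3 it had 116, 99.4 and 109 CPM in HT3 against 79.8, 86.3 and 86.0 CPM in NT3. The groups did not overlap on any day, and the log2FC was 0.36 on day 3 (standard error 0.11, adjusted p = 0.14) and 1.19 on day 5 (standard error 0.12, adjusted p = 5.04e-05) by edgeR's test.

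TARS1, the threonine enzyme, stood at 245, 243 and 293 CPM in HT7 and at 118, 108 and 132 CPM in NT7, and its log2FC was 1.13 ± 0.12 (SE, adjusted p = 7.65e-06, edgeR). On day 5 TARS1 had 214 and 253 CPM in HT5 against 95.1, 115 and 109.6 CPM in NT5, again without overlap, and its log2FC was 1.13 (standard error 0.13, adjusted p = 8.24e-05, edgeR). SARS1, the serine enzyme, had a log2FC of 1.13 (standard error 0.13, adjusted p = 1.5e-05, edgeR).

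A further 5 cytosolic members rose by less on day 7. EPRS1, the enzyme with both the glutamate and the proline activity, had a log2FC of 0.82, RARS1 (arginine) 0.77, NARS1 (asparagine) 0.72, HARS1 (histidine) 0.70 and LARS1 (leucine) 0.61. RARS1 stood at 83.9, 71.7 and 86.0 CPM in HT7 and at 46.7, 45.2 and 49.4 CPM in NT7, with a standard error of 0.11 and an adjusted p-value of 4.82e-05 from edgeR. On day 5 RARS1 had 69.9 and 88.1 CPM in HT5 against 44.3, 45.8 and 49.4 CPM in NT5, and on day 3 it had 58.6, 52.3 and 61.1 CPM in HT3 against 50.1, 49.8 and 49.9 CPM in NT3, with no overlap on either day and a log2FC of 0.20 on day 3 (standard error 0.10, adjusted p = 0.389) and 0.77 on day 5 (standard error 0.12, adjusted p = 0.000411) by edgeR's test. All 5 had every HT7 sample above every NT7 sample.

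The remaining 5 cytosolic members did not pass on day 7, of which 4 are described. KARS1 (lysine) had a log2FC of 0.33 (adjusted p = 0.0275, edgeR), MARS1 (methionine) 0.11 (adjusted p = 0.283) and QARS1 (glutamine) -0.01 (adjusted p = 0.955). WARS1, the tryptophan enzyme, was the only cytosolic member whose HT7 samples all lay below the NT7 samples, with 348, 308 and 331 CPM against 547, 420.5 and 419 CPM. Its log2FC was -0.49 (standard error 0.16, adjusted p = 0.022, edgeR), which did not pass, and its counts include those of SLC25A29. With the replicate block WARS1 fell (log2FC -0.48, adjusted p = 0.00736, edgeR). WARS1 overlapped between the groups on days 3 and 5, where its log2FC was -0.21 and -0.27.

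A split of the cytosolic enzymes by the multisynthetase complex, chosen after the values were seen, gave unequal counts. Of the 8 catalytic members of the complex, 4 rose (EPRS1, IARS1, LARS1 and RARS1) on day 7 and 3 on day 5. Of the 10 cytosolic members outside it, 9 rose on day 7 and 8 on day 5, with WARS1 as the exception on day 7. Among all genes tested, 16.7% rose on day 7 and 8.56% on day 5. The median log2FC on day 7 was 0.47 inside and 1.19 outside the complex, and this difference was not tested. MARS1, QARS1 and KARS1, all of the complex, lay between -0.01 and 0.33.

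Of the scaffold genes of this complex, AIMP1 passed and AIMP2 did not, and the difference between them was not tested. AIMP1 (chromosome 15, 43243192 to 43393876) stood at 121, 85.3 and 112 CPM in HT7 and at 42.7, 42.9 and 47.8 CPM in NT7, and its log2FC was 1.25 ± 0.16 (SE, adjusted p = 3.28e-05, edgeR), a 2.38-fold rise. AIMP2 had a low level of 2.06 to 4.85 CPM over all samples, with a log2FC of 0.12 on day 7 (adjusted p = 0.722, edgeR). The enzymes of the selenocysteine route, PSTK, which phosphorylates the seryl group on the tRNA, and SEPSECS, which converts it to selenocysteine, had log2FC values of 0.05 (adjusted p = 0.76) and 0.40 (adjusted p = 0.0844) on day 7 by edgeR's test.

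Among the mitochondrial synthetases, MARS2, the methionine enzyme (chromosome 7, 138141414 to 138143252), had the largest rise on day 7. It stood at 14.997, 13.2 and 19.4 CPM in HT7 and at 4.37, 5.19 and 4.67 CPM in NT7. On day 5 it stood at 11.1 and 16.5 CPM in HT5 against 3.51, 5.41 and 4.34 CPM in NT5, and on day 3 at 6.86, 5.65 and 7.76 CPM in HT3 against 4.59, 5.09 and 4.89 CPM in NT3. The groups did not overlap on any day. The log2FC was 0.47 on day 3 (adjusted p = 0.309), 1.65 on day 5 (adjusted p = 0.000303) and 1.74 on day 7 (standard error 0.22, adjusted p = 2.52e-05) by edgeR's test.

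AARS2, the mitochondrial alanine enzyme (chromosome 12, 33680317 to 33692032), stood at 40.1, 23.8 and 42.3 CPM in HT7 and at 15.2, 12.1 and 16.9 CPM in NT7, and its log2FC was 1.27 ± 0.22 (SE, adjusted p = 0.000317, edgeR). On day 5 AARS2 had 30.1 and 40.0 CPM in HT5 against 15.1, 11.01 and 17.001 CPM in NT5, and on day 3 it had 18.2, 17.1 and 21.2 CPM in HT3 against 17.5, 14.8 and 16.4 CPM in NT3. AARS2 overlapped on day 3 only, and its log2FC was 0.22 on day 3 (standard error 0.22, adjusted p = 0.693) and 1.29 on day 5 (standard error 0.24, adjusted p = 0.00148) by edgeR's test.

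YARS2 (tyrosine) stood at 34.4, 24.9 and 34.9 CPM in HT7 and at 17.4, 16.1 and 14.3 CPM in NT7, and its log2FC was 0.98 ± 0.17 (SE, adjusted p = 0.000279, edgeR). On day 5 YARS2 had 18.0 and 24.6 CPM in HT5 against 13.4, 12.5 and 13.4 CPM in NT5, and on day 3 it had 12.7, 16.8 and 17.8 CPM in HT3 against 14.2, 14.1 and 14.7 CPM in NT3. It too overlapped on day 3 only, with a log2FC of 0.14 on day 3 (standard error 0.17, adjusted p = 0.75) and 0.70 on day 5 (standard error 0.19, adjusted p = 0.0107) by edgeR's test.

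FARS2, the single-chain phenylalanine enzyme, stood at 15.6, 9.25 and 10.04 CPM in HT7 and at 6.08, 6.95 and 6.79 CPM in NT7. Its log2FC was 0.81 (standard error 0.20, adjusted p = 0.00439, edgeR), and it was called in 6 of 12 alternatives. The call was lost without the first HT7 sample, without any one of the NT7 samples, with the replicate block and with the samples of day 7 alone (adjusted p = 0.0317, edgeR). On day 5 FARS2 had 10.7 and 11.8 CPM in HT5 against 6.66, 5.73 and 6.87 CPM in NT5, and on day 3 it had 7.45, 5.93 and 7.53 CPM in HT3 against 9.69, 7.51 and 7.57 CPM in NT3, with overlap on day 3 only and a log2FC of -0.24 on day 3 (standard error 0.20, adjusted p = 0.608) and 0.81 on day 5 (standard error 0.22, adjusted p = 0.0137) by edgeR's test.

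IARS2 (isoleucine) stood at 81.5, 84.6 and 84.0 CPM in HT7 and at 60.8, 54.4 and 56.1 CPM in NT7, a small change with little spread and a log2FC of 0.55 (standard error 0.08, adjusted p = 8.76e-05, edgeR). On day 5 IARS2 had 73.4 and 82.8 CPM in HT5 against 56.95, 62.1 and 61.6 CPM in NT5, and on day 3 it had 69.0, 65.0 and 64.8 CPM in HT3 against 62.3, 64.8 and 62.9 CPM in NT3. IARS2 overlapped on day 3 only, and its log2FC was 0.06 on day 3 (standard error 0.08, adjusted p = 0.756) and 0.38 on day 5 (standard error 0.09, adjusted p = 0.00596) by edgeR's test.

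The other 9 mitochondrial members did not pass on any day. NARS2 had a log2FC of 0.55 (adjusted p = 0.0152, edgeR) and CARS2 one of 0.52 (adjusted p = 0.0445, edgeR) on day 7, with every HT7 sample above every NT7 sample in both. WARS2, HARS2, PARS2, TARS2 and LARS2 lay between -0.06 and 0.38. RARS2, the arginine enzyme, was the only mitochondrial member with every HT7 sample below every NT7 sample, at 13.6, 13.7 and 14.2 CPM against 15.1, 15.4 and 17.6 CPM, and its log2FC was -0.21 (standard error 0.14, adjusted p = 0.21, edgeR). On day 5 RARS2 had 13.2 and 15.7 CPM in HT5 against 15.1, 14.3 and 17.2 CPM in NT5, and on day 3 it had 13.6, 11.3 and 14.6 CPM in HT3 against 16.4, 15.5 and 17.7 CPM in NT3. It lay below normoxia on day 3 and overlapped on day 5, and the log2FC was -0.33 on day 3 (standard error 0.14, adjusted p = 0.254) and -0.10 on day 5 (standard error 0.15, adjusted p = 0.633) by edgeR's test.

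Counted by samples, 22 of the 36 members had every HT7 sample above every NT7 sample on day 7, beside 27.3% of all genes tested, and 2 had every HT7 sample below (WARS1 and RARS2), beside 27.2% of all genes. In the HT7 samples, 16, 14 and 14 of the 18 cytosolic members and 10, 7 and 11 of the 14 mitochondrial members were above the highest NT7 value. The share of all genes above the highest NT7 value was not computed for single samples, so nothing further is read from these counts.

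**Figure D3:**
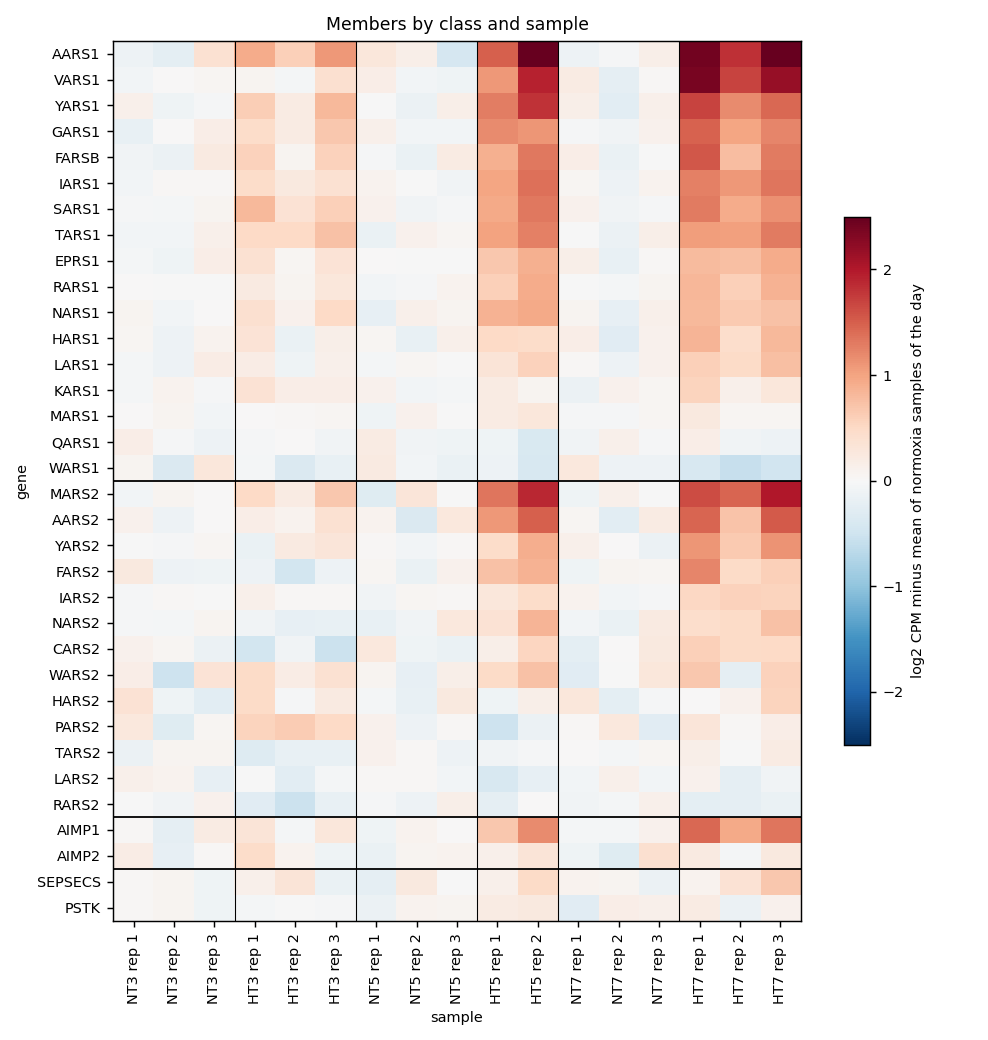
Difference of each sample's log2 CPM from the mean of the normoxia samples of its day (colour, with values beyond the ends of the scale drawn in the end colours) for the genes described (y axis, with lines between the classes) in the 17 samples (x axis). AARS1 and VARS1 are darkest in the HT7 samples and AARS1 in the HT5 samples, most genes are paler in the HT3 samples with AARS1 up to 1.09, and MARS1, QARS1 and most of the lower mitochondrial genes stay near 0.

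On day 3 no member passed, while 10 were higher and 2 lower at an unadjusted p-value under 0.05, beside 7.43% and 7.88% of all genes, and DESeq2 called 2 cytosolic members and 0.753% of all genes with a rise. In all, 0.0989% of genes tested passed with a rise and 0.107% with a fall on that day. The lowest adjusted p-values belonged to TARS1, with a log2FC of 0.58 (adjusted p = 0.0363, edgeR), and SARS1, with a log2FC of 0.60 (adjusted p = 0.0429, edgeR). TARS1 stood at 139, 140.2 and 164 CPM in HT3 and at 94.4, 94.0 and 108 CPM in NT3. All HT3 values exceeded all NT3 values for 11 of 36 members (9 cytosolic, and MARS2 and PARS2), beside 12.8% of all genes. Every HT3 sample lay below for NARS2, RARS2 and TARS2, beside 13.9% of all genes. The median log2FC on day 3 was 0.24 for the cytosolic and 0.02 for the mitochondrial synthetases, beside 0.00 for all genes.

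On day 5, 15 members passed with a rise and none with a fall, beside 8.56% and 7.62% of all genes. They were 11 cytosolic members, the mitochondrial MARS2 (1.65), AARS2 (1.29) and IARS2 (0.38), and AIMP1 (0.95). The IARS2 call was kept in 5 of 11 alternatives and lost with the replicate block, with the samples of day 5 alone, without the second HT5 sample and without any one of the NT5 samples. The cytosolic median log2FC was 0.85 and the mitochondrial median 0.36, beside -0.02 for all genes. Both HT5 samples lay above every NT5 sample for 25 of 36 members, beside 26.5% of all genes, and below for LARS2, PARS2 and QARS1, beside 29.2% of all genes.

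The day 5 calls rest on 2 hyperoxia samples and on the spread of the other groups. Leaving out either HT5 sample leaves 1 hyperoxia sample on that day, so no count of calls is given from those fits. Over the 11 alternatives the log2FC on day 5 was 1.45 to 2.61 for AARS1 and 1.32 to 1.90 for MARS2. With the samples of day 5 alone in the fit, none of the 15 passed by edgeR, while 15 members were higher at an adjusted p-value under 0.05 and 21 at an unadjusted one, beside 9.37% and 18.6% of all genes, and in that fit 12 of all genes passed. On day 7 the calls held in all 12 alternatives for 17 of the 19 members, the exceptions being FARS2, called in 6, and HARS1, called in 9 and lost without the first HT7 sample, without the second NT7 sample and with the samples of day 7 alone.

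The effect of hyperoxia was larger on day 7 than on day 3 for 4 members by the test of that difference, while 2.59% of all genes passed in this direction. The difference in log2FC was 1.95 for VARS1 (standard error 0.29, adjusted p = 0.00133, edgeR), 1.07 for AIMP1 (standard error 0.23, adjusted p = 0.00606), 0.87 for IARS1 (standard error 0.16, adjusted p = 0.00318) and 0.48 for IARS2 (standard error 0.11, adjusted p = 0.00995). AARS1 had a difference of 1.42 with a wider error (standard error 0.39, adjusted p = 0.0208, edgeR), which did not pass. VARS1 was called in all 17 alternatives, IARS1 in 14, AIMP1 in 8 and IARS2 in 1. With the replicate block IARS1 (adjusted p = 0.0101, edgeR) and IARS2 (adjusted p = 0.0309, edgeR) were not called. The count of members turned on the test and the threshold, since DESeq2 called 6 cytosolic and 5 mitochondrial members and AIMP1, beside 6.63% of all genes. At an adjusted p-value under 0.05, edgeR called 9 cytosolic and 6 mitochondrial members and AIMP1, beside 9.52% of all genes.

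Normoxia alone was compared over time as the background. Between NT3 and NT7 no member passed by edgeR's test, with 2 higher and 1 lower at an unadjusted p-value under 0.05, beside 3.37% and 2.90% of all genes, and none passed by DESeq2. The log2FC of NT7 over NT3 ranged from -0.50 (CARS2) to 0.50 (PARS2).

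Cytosolic and mitochondrial enzymes of the same amino acid were then compared within each sample, as the log2 ratio of their counts, in which library size cancels. Only changes of a ratio are read, since its height also depends on the lengths of both transcripts. For 12 amino acids both genes were listed. The mean difference of hyperoxia minus normoxia over the 3 days was tested by a 2-sided exact permutation of the condition labels within days, with 4000 arrangements and a smallest possible p-value of 0.00025. The p-values are unadjusted, and 12 pairs were tested, of which 9 had a higher and 2 a lower ratio in hyperoxia at p under 0.05.

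By the mean over the 3 days, though not on day 7 alone, the threonine pair (TARS1 over TARS2) had the largest gain. Its log2 ratio was 1.58, 1.45 and 1.68 in HT3, 1.85 and 2.04 in HT5 and 1.86, 2.01 and 2.07 in HT7. In normoxia it was 0.84, 0.62 and 0.83 in NT3, 0.49, 0.84 and 0.92 in NT5 and 0.96, 0.89 and 1.06 in NT7. Hyperoxia lay above normoxia on every day, with a mean difference of 1.01 (exact permutation p = 0.00025), though the counts of TARS2 include those of ECM1.

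TARS2 itself stood at 67.3, 60.2 and 69.7 CPM in HT7 and at 60.6, 58.1 and 63.0 CPM in NT7, and its log2FC was 0.12 (standard error 0.09, adjusted p = 0.32, edgeR). On day 5 TARS2 had 59.5 and 61.5 CPM in HT5 against 67.8, 64.1 and 57.8 CPM in NT5, and on day 3 it had 46.5, 51.1 and 51.2 CPM in HT3 against 52.8, 61.0 and 61.1 CPM in NT3. It overlapped on day 5 and lay below normoxia on day 3, with a log2FC of -0.23 on day 3 (standard error 0.09, adjusted p = 0.251) and -0.06 on day 5 (standard error 0.11, adjusted p = 0.675) by edgeR's test. The change of the ratio on day 7 was thus mostly that of TARS1.

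The arginine pair (RARS1 over RARS2) and the isoleucine pair (IARS1 over IARS2) also lay higher in hyperoxia on every day. The log2 ratio of the arginine pair was 2.63, 2.39 and 2.59 in HT7 and 1.63, 1.55 and 1.49 in NT7, 2.40 and 2.49 in HT5 and 1.55, 1.68 and 1.52 in NT5, and 2.10, 2.21 and 2.06 in HT3 and 1.61, 1.68 and 1.49 in NT3. Its mean difference over the days was 0.79 (exact permutation p = 0.00025). The isoleucine ratio was 1.36, 1.12 and 1.39 in HT7 and 0.56, 0.54 and 0.73 in NT7, 1.27 and 1.49 in HT5 and 0.74, 0.51 and 0.46 in NT5, and 0.75, 0.61 and 0.75 in HT3 and 0.36, 0.41 and 0.45 in NT3, with a mean difference of 0.60 (exact permutation p = 0.00025). For isoleucine both enzymes rose on day 7 and the cytosolic enzyme rose by more, whereas for arginine the mitochondrial enzyme did not pass.

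The phenylalanine pair (FARSB over FARS2), formed after the data were seen and not among the 12 pairs, lay higher on every day as well. Its log2 ratio was 2.63, 2.60 and 3.00 in HT7 and 2.59, 2.07 and 2.26 in NT7, 2.41 and 2.69 in HT5 and 2.16, 2.24 and 2.35 in NT5, and 2.58, 2.41 and 2.56 in HT3 and 1.54, 1.85 and 2.20 in NT3. The mean difference was 0.46 (exact permutation p = 0.00025), and the gap between the groups was narrow on days 5 and 7.

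The methionine pair went the other way. The log2 ratio of MARS1 to MARS2 was 4.40, 4.38 and 3.84 in HT7 against 5.90, 5.66 and 5.88 in NT7, 4.72 and 4.24 in HT5 against 6.07, 5.67 and 5.87 in NT5, and 5.41, 5.70 and 5.27 in HT3 against 5.98, 5.89 and 5.81 in NT3. Hyperoxia lay below normoxia on every day, with a mean difference of -1.14 (exact permutation p = 0.00025). MARS1, whose counts include those of MBD6, stood at 318, 276 and 277 CPM in HT7 and at 263, 263 and 278 CPM in NT7, so the fall of the ratio on day 7 came with the rise of MARS2. On day 5 MARS1 had 294 and 312 CPM in HT5 against 238, 277 and 255 CPM in NT5, and on day 3 it had 292, 295 and 301 CPM in HT3 against 292, 303 and 277 CPM in NT3. Both HT5 samples lay above NT5 and the day 3 groups overlapped, with a log2FC of 0.03 on day 3 (standard error 0.08, adjusted p = 0.917) and 0.24 on day 5 (standard error 0.09, adjusted p = 0.0659) by edgeR's test.

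The tryptophan pair (WARS1 over WARS2) was the other with a lower ratio, at 5.16, 5.90 and 5.20 in HT7 and 6.79, 6.12 and 5.83 in NT7, with a mean difference of -0.75 (exact permutation p = 0.00075). It did not overlap on days 3 and 5 and overlapped on day 7. The ratio was higher in hyperoxia for alanine (0.82, exact permutation p = 0.001), tyrosine (0.58, p = 0.00075), leucine (0.54, p = 0.001) and asparagine (0.32, p = 0.0045). Alanine overlapped on day 5, tyrosine and leucine on day 3, and asparagine on days 5 and 7. The asparagine difference was 0.49 on day 3, 0.30 on day 5 and 0.18 on day 7. The ratio was also higher for EPRS1 over PARS2 (0.49, exact permutation p = 0.0405) and for histidine (0.27, p = 0.0458). On day 3 both of these ratios overlapped and were lower on average in hyperoxia, by -0.32 and -0.11, so their gain is that of days 5 and 7, and both went to p of 0.05 or more in 11 and 12 of the 17 runs that left out 1 sample.

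**Figure D4:**
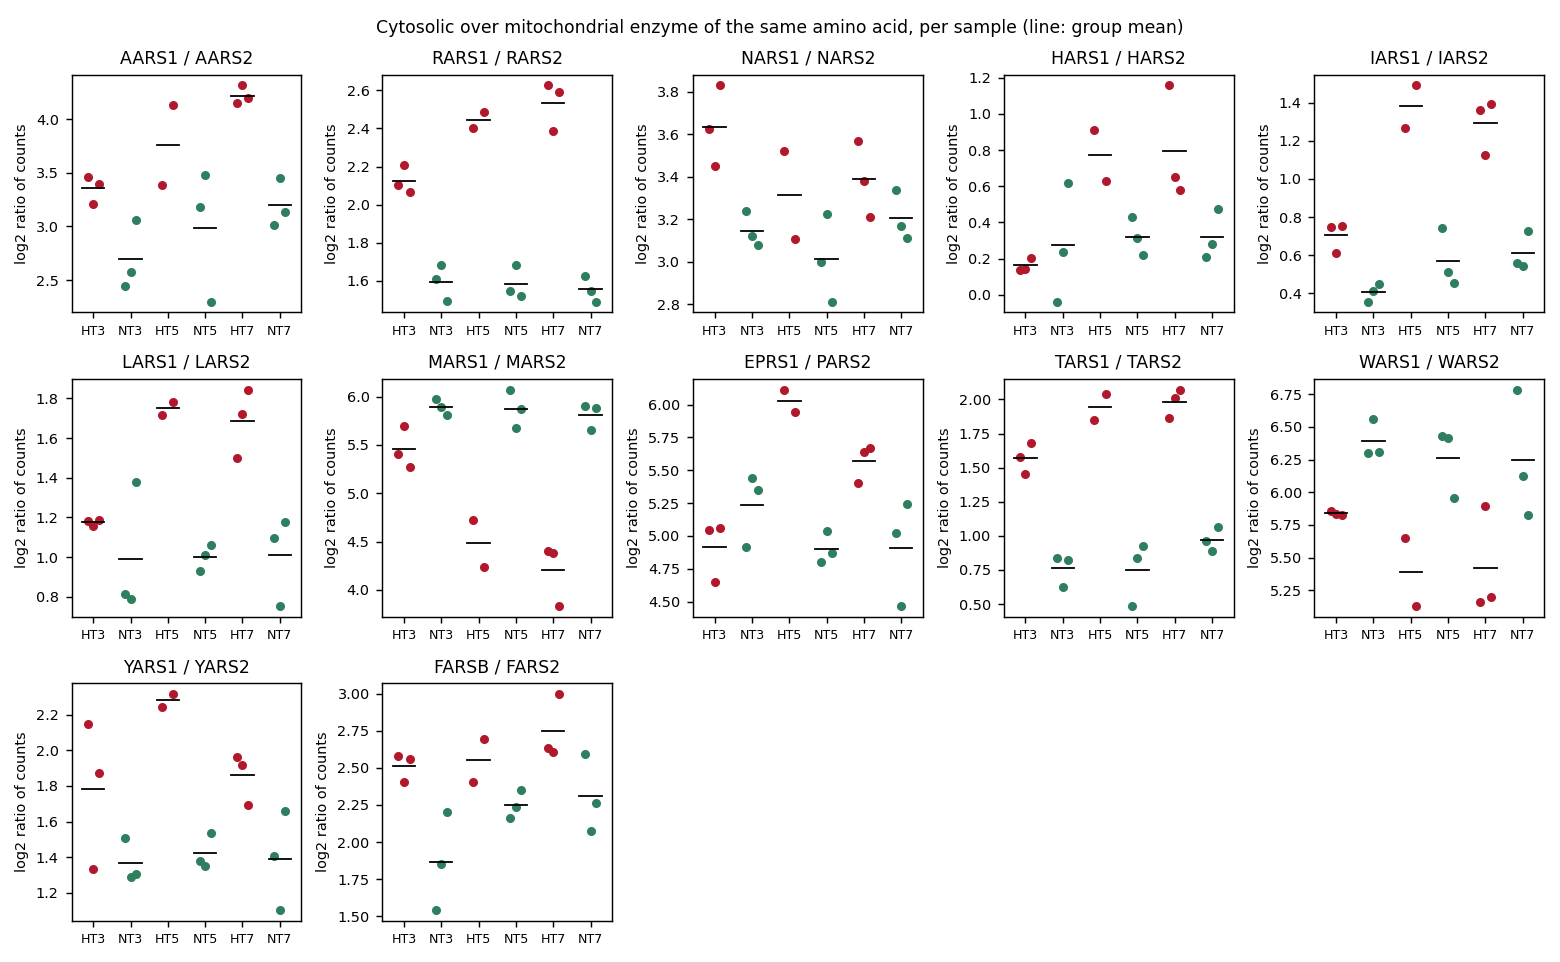
Log2 ratio of cytosolic to mitochondrial counts (y axis, own range in each panel) for the amino acid pairs described in each sample of the 6 groups (x axis), hyperoxia in red, normoxia in green, with a line at the group mean. TARS1 over TARS2 in HT7 lies between 1.86 and 2.07, above NT7 at 0.89 to 1.06, and MARS1 over MARS2 in HT7 lies between 3.84 and 4.40, below NT7 at 5.66 to 5.90.

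The pairs include close neighbours on the genome. HARS1 (chromosome 3, 22794771 to 22811461, reverse strand) and HARS2 (22811732 to 22818237, forward strand) start in opposite directions with 270 bases between their annotated ends. On day 7 HARS1 stood at 64.8, 48.6 and 63.3 CPM in HT7 against 40.3, 29.5 and 38.9 CPM in NT7, while HARS2 stood at 29.0, 30.9 and 42.4 CPM against 34.9, 24.2 and 28.0 CPM. The first did not overlap and the second did. IARS2 and EPRS1, which also point away from each other, lie 38110 bases apart on chromosome 16, and both rose on day 7.

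Genes that act around the synthetases were described by lists set up for this purpose, whose counts stand beside 8.56% of all genes with a rise and 7.62% with a fall on day 5, and 16.7% and 16.9% on day 7. Of 23 genes for tRNA processing and modification, none passed on day 3, 11 rose on day 5 and 17 on day 7, with none lower and a median log2FC of 0.88 on day 7. RPP25, a subunit of RNase P, had a log2FC of 2.64 (adjusted p = 0.000776, edgeR) at a very low level of 0.67 to 2.19 CPM in HT7 and 0.13 to 0.31 CPM in NT7. TRMT1, a tRNA guanine methyltransferase, had a log2FC of 1.74, WDR4 one of 1.72 and METTL1 one of 1.55 on day 7. The last 2 form the enzyme that makes 7-methylguanosine in tRNA.

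Of 15 genes of the amino acid response, none passed on day 3, 7 rose on day 5, and on day 7 10 rose and 1 fell. The median log2FC was 0.60 on day 3 and 1.06 on day 7. On day 3, 8 were higher and 1 lower at an unadjusted p-value under 0.05, beside 7.43% and 7.88% of all genes. SESN2, which inhibits mTORC1 when leucine is scarce, had a log2FC of 3.45, MTHFD2, an enzyme of mitochondrial folate metabolism, 2.48 and ASNS, the asparagine synthetase, 1.85. DDIT3, the stress factor CHOP, was the gene that fell, at 0.69, 2.18 and 0.97 CPM in HT7 against 4.24, 8.03 and 7.29 CPM in NT7, and its log2FC was -2.35 ± 0.40 (SE, adjusted p = 0.000253, edgeR). ATF4 is not analysed here.

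Of 9 amino acid transporters, none passed on day 3, 4 rose and 1 fell on day 5, and 6 rose and 1 fell on day 7. On day 3, 5 were higher and 2 lower at an unadjusted p-value under 0.05, beside 7.43% and 7.88% of all genes. Apart from SLC7A11, the cystine carrier with the largest rise, SLC7A1, which carries arginine and lysine, had a log2FC of 1.94 on day 7, and SLC3A2, the heavy chain shared by several transporters, 1.51. SLC6A9, a glycine transporter, fell by 0.86 on the log2 scale. Of 12 genes for eIF2 kinases, eIF2, its exchange factor and its phosphatase, 5 rose on day 5 and 7 on day 7, among them EIF2B3 at 1.60 and EIF2B5 at 1.41.

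Of 4 accessories of mitochondrial tRNA charging, QRSL1, the subunit A of the amidotransferase that makes glutaminyl-tRNA there, rose with a log2FC of 1.80 on day 7, and GATC, another subunit whose counts are shared with CDC42BPA, fell by 0.51 on the log2 scale. Of 9 mitochondrial translation factors, 4 rose and 1 fell on day 5, with a median log2FC of 0.68, beside 8.56% and 7.62% of all genes. On day 7, 3 of them rose and 1 fell, with GFM1, an elongation factor, at 0.90 and the entry that TSFM shares with DTX3 at -1.26. Of 4 cytosolic elongation factors, EIF5A rose by 1.12 and EEF1A1, which delivers charged tRNA to the ribosome, fell by 1.02 on the log2 scale. Of 3 further genes of the selenocysteine route, SECISBP2, which shares its counts with CKS2, rose by 0.35 and SEPHS1 fell by 0.38 on the log2 scale. Beside the 16.7% and 16.9% of all genes on day 7, nothing is read from 1 to 3 calls of that day in lists of 3 to 9 genes. Of 3 editing factors and paralogues none passed on any day by edgeR, with 1 lower on day 3 at an unadjusted p-value under 0.05.

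The 15 interferon response genes tested stand for 14 loci, since TAP1 and PSMB8 share their counts, and those of OAS2 are shared with RITA1. They had no call on any of the days 3, 5 and 7 by edgeR, with medians of -0.31, 0.50 and -0.14. At an unadjusted p-value under 0.05, 1 was higher on day 3, 4 were higher on day 5, beside 21.6% of all genes, and 1 was lower on day 7, beside 27.0% of all genes.

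**Figure D5:**
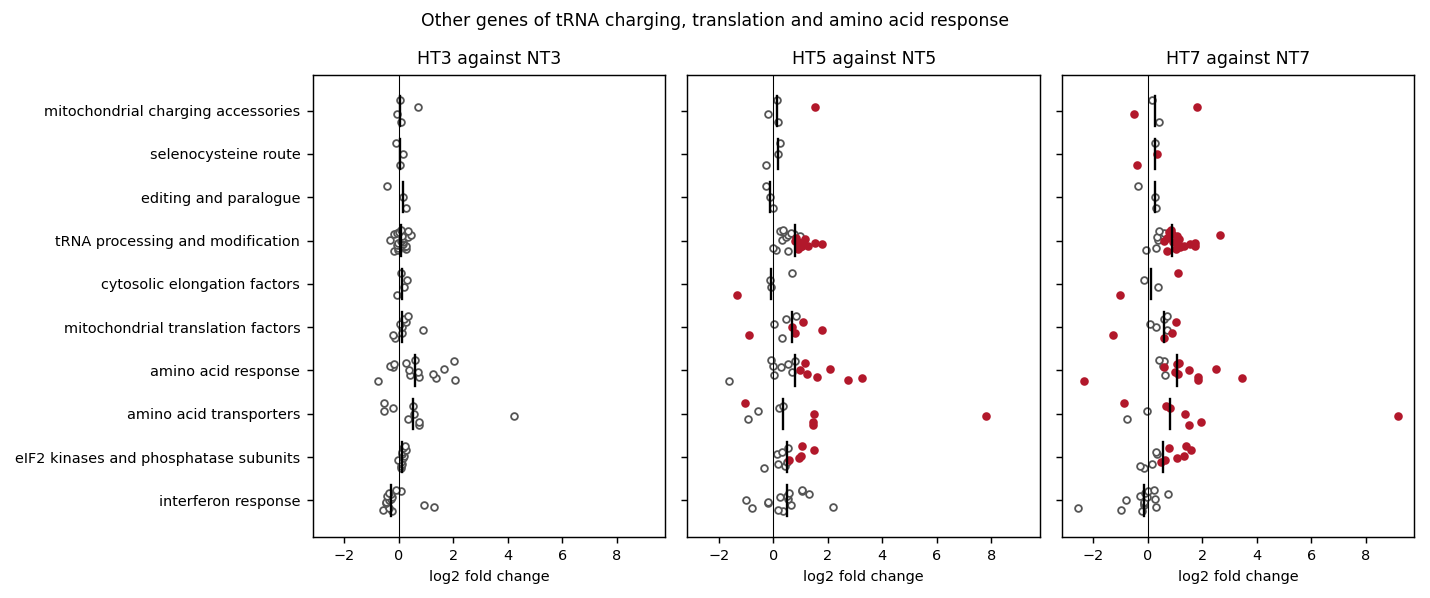
Log2 fold change of hyperoxia over normoxia (x axis, log2 scale) of the genes in 10 lists (y axis) on days 3, 5 and 7, with the list median as a black bar and filled red points where edgeR's adjusted p-value was under 0.01. The median of tRNA processing and modification lies at 0.88 and that of the interferon response at -0.14 on day 7.

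Marker genes of the cell types of the lung also differed between the groups. Their calls stand beside 8.56% of all genes higher and 7.62% lower on day 5, and 16.7% and 16.9% on day 7. Beside these shares, nothing is read from 1 or 2 calls in such short lists. Alveolar type 2 markers held 11385 to 30889 CPM in sum over all samples, as the labelled tissue would have, with 1 of 5 (NAPSA) lower on day 7. Alveolar type 1 markers summed to 1931 to 2523 CPM in HT7 and 6402 to 7189 CPM in NT7, with 2 of 4 lower. These were CAV1 and AGER, which shares its counts with PBX2, while HOPX (0.35) and PDPN (0.15) did not pass. Without AGER the sums were 1127 to 1443 CPM in HT7 and 2429 to 2719 CPM in NT7. Endothelial markers summed to 735 to 1145 CPM in HT7 and 1572 to 1914 CPM in NT7, with 2 of 4 lower (CDH5 and KDR). PECAM1 (-0.05) and VWF (0.29) did not pass on day 7. On day 5 CDH5 and KDR were also lower, and VWF was higher (log2FC 1.14, adjusted p = 0.00747, edgeR). Macrophage markers summed to 1678 to 2311 CPM in HT7 and 1061 to 1248 CPM in NT7, with 1 of 5 higher and 1 lower. The higher one was CD68, whose counts are shared with EIF4A1 and MPDU1, and the other 4 macrophage markers summed to 248 to 499 CPM in HT7 and 404 to 479.6 CPM in NT7. None of 8 proliferation markers passed by edgeR, with 7 lower on day 5 at an unadjusted p-value under 0.05, beside 21.7% of all genes. None of 5 neutrophil markers passed either, with 5 higher on day 3 at an unadjusted p-value under 0.05, beside 7.43% of all genes. At that threshold 3 were higher on day 5, beside 21.6% of all genes, and 2 on day 7, beside 3542 of the 13142 genes. Of fibroblast markers 1 of 4 was lower on day 5, and of red blood cell precursor markers 2 of 4 were lower on day 7. None of the heart muscle and ciliated cell markers passed on any day, and lymphocyte markers held at most 13.5 CPM in sum, with 2 of 4 lower on day 7. Skeletal muscle markers reached 324 CPM in the second HT3 sample, 41.2 CPM in the third and 294 CPM in the first HT5 sample, beside at most 10.7 CPM in normoxia. The part of these cell types in the values of the synthetases was not tested. Without the first HT5 sample 1 hyperoxia sample remains on day 5, so no calls are counted from that fit. Without the second HT3 sample, VARS1 and IARS1 were still called in the test of day 7 against day 3, and AIMP1 and IARS2 were not.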

How the data were processed

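Lung samples of preterm pups (17) were analysed. The authors deposited raw counts per locus, without normalization, made from stranded poly(A) libraries. The submitters' processing notes name FastQC, STAR 2.7.10a and the genome build OryCun2.0, and the counting program is not given in the sources used here. The table holds 13827 genes at 13313 loci, and the 434 loci with several genes give each gene the same counts.

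Genes kept by filterByExpr (13142 tested, 685 not) were fitted with edgeR 4.0.16 in R 4.3.3 (TMM, quasi-likelihood, 6 group means, all 17 samples). TMM factors lay between 0.958 and 1.05. Log2FC used a prior count of 0.125, and 0.5 was added to each count of a ratio. Ratios were tested with numpy 2.4.6, scipy 1.17.1 and pandas 2.3.3 in Python 3.11, and figures were drawn with matplotlib 3.10.9. The scripts were tested on simulated data.

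Members and gene lists were chosen with earlier results of these data known. Values in every sample are given for DEGs, the 5 cytosolic and 5 mitochondrial members with the largest change on day 7, members that passed with a fall and pairs that did not overlap on any day, and values for AIMP1 and WARS1 were added after they were seen. At most 4 genes a list are named. Some members are counted in the totals but not reported here by name or value. Sequences and transcript lengths were not used here.

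Same-numbered samples of a day deviated together with correlations of 0.166, 0.131 and 0.199 on day 3, 0.264 and 0.141 on day 5, and 0.174, 0.109 and 0.0695 on day 7. All pairs of a day passed 0.1 with at least 3 pairs on day 3 only, where the replicate block changed no call of HT3 against NT3. In the test of day 7 against day 3 the block removed the calls of IARS1 and IARS2. The labels do not say what the numbers stand for. Replicates differed by more than sampling noise. Alternatives were DESeq2 1.42.0, RLE factors, no count filter, 1 entry per locus, an adjusted p-value under 0.05, a replicate block, samples of the day only and leaving out each sample. The count of members with a locus of their own and the FARSB pair were added after seeing the data.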

Additional observations from a re-analysis of the deposited data

Results flagged for a closer look

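The effect of hyperoxia differed between days 7 and 3 by edgeR's test of that difference for 4 genes. The difference in log2FC (day 7 minus day 3) was 1.95 for VARS1, 1.07 for AIMP1, 0.87 for IARS1 and 0.48 for IARS2. Of 17 alternatives, the call was kept in 17 for VARS1, 14 for IARS1, 8 for AIMP1 and 1 for IARS2. The replicate block was among those that lost the IARS1 call. For VARS1 the log2FC went from 0.15 on day 3 to 2.10 on day 7, and its counts include those of VWA7.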

How the results depend on the processing

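Of 2448 recomputed log2FC values of members, 2333 stayed on the same side of the threshold, 66 were no longer called and 49 became called. The sign turned in 67 values, of which 0 were called. At an adjusted p-value under 0.05, 2 cytosolic members rose on day 3, 6 mitochondrial members rose on day 5, 1 cytosolic member (WARS1) fell on day 7, and 9 cytosolic and 6 mitochondrial members had a larger effect on day 7 than on day 3. Of all 13142 genes tested, 68 rose on day 3, 2093 rose on day 5 and 3113 fell on day 7 at that threshold. A larger effect on day 7 was called for 9.52% of them. With DESeq2, 2 cytosolic members rose on day 3, 5 mitochondrial members rose on day 5, and 6 cytosolic and 5 mitochondrial members had a larger effect on day 7 than on day 3. With RLE factors, with no count filter and with 1 entry per locus, 0 mitochondrial members had a larger effect on day 7. Among members with a locus of their own, 1 cytosolic member had a larger effect on day 7, since VARS1 shares its locus. With the samples of the day only, 0 cytosolic, 0 mitochondrial and 0 scaffold members passed on day 5.

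With the replicate block, WARS1 fell on day 7 (1 cytosolic member lower), and 1 cytosolic and 0 mitochondrial members had a larger effect on day 7 than on day 3. The block left 11 cytosolic and 2 mitochondrial rises on day 5 and 13 cytosolic and 4 mitochondrial rises on day 7.

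No counts from leaving out samples are given for day 5, where leaving out an HT5 sample leaves 1 hyperoxia sample. For the larger effect on day 7, leaving out each sample in turn gave 1 to 6 cytosolic, 0 to 4 mitochondrial and 0 to 1 scaffold members. Shares of all genes were not computed for these fits. The most cytosolic and mitochondrial calls there came without the second HT7 sample. The cause was not tested. The pairs with a higher ratio numbered 8 with days 5 and 7 only, where asparagine had an exact permutation p of 0.08 (200 arrangements).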
